A study of Ovis aries with 6 samples.

Results

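The SLC25 mitochondrial carrier genes were taken as every row of the full gene table whose symbol is SLC25A followed by a number. The rule found 41 of 24390 genes, and 38 of them had enough counts to be tested. RNA sequencing had been run on perirenal adipose tissue, the fat depot that surrounds the kidneys, of wild type, pure-bred Merino sheep to ask how this depot differs between late gestation and the months after birth. One group was 3 lambs, whose age the labels give as 80 days after birth, as 89 ± 7 days and as 12 weeks. The other was 3 fetuses taken 132 days post conception (gestation lasts about 150 days). Per the labels no animal was treated, all ewes were fed to maintenance energy needs, lambs stayed with their ewes until weaning, and each library came from a separate animal. What the letters VEH in the titles of the lamb libraries stand for is not stated in the labels, nor is the sex of any animal.

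SLC25 proteins sit in the inner mitochondrial membrane, with a few in other membranes, and pass nucleotides, phosphate, metabolites, amino acids, cofactors and metal ions between the cytosol and the matrix. The ADP/ATP carriers and the phosphate carrier supply ATP synthase, and other members carry fuel to oxidation, export citrate for lipid synthesis or move reducing equivalents inward by the malate-aspartate shuttle. Brown adipocytes hold many mitochondria and burn fat for heat, and perirenal fat of the sheep is known as a brown-like depot before birth that turns white afterwards. UCP1, UCP2 and UCP3 belong to the same protein family by structure but carry other symbols, so they were treated as partner genes.

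The libraries held 15907128 to 17263780 counts in lambs and 17535892 to 19150428 counts in fetuses. Transcripts of the mitochondrial genome took 7.89% ± 0.47 of lamb counts and 34.2% ± 6.60 of fetal counts (SD, n = 3 each). Values below are CPM, counts divided by the TMM-adjusted library size and scaled to 1e6, and differences are on the log2 scale, lamb minus fetal, ± SE, from edgeR's quasi-likelihood test with Benjamini-Hochberg adjustment over 13624 genes (called below 0.05). Adipocyte markers were abundant in every library, with summed levels of 27117 to 37664 CPM in lambs and 13235 to 16560 CPM in fetuses (5 of 6 higher), and brown adipocyte markers summed to 503 to 600 CPM in lambs and 1435 to 2595 CPM in fetuses (5 of 6 lower). Markers of other cells moved with stage as well. Macrophage markers summed to 1117 to 1364 CPM in lambs and 115 to 214 CPM in fetuses (6 of 7 tested higher), red cell markers to 58.3 to 85.8 and 383 to 1303 CPM (4 of 6 tested lower), and urothelium markers to 0.494 to 0.727 and 40.6 to 135 CPM (8 of 8 lower). Skeletal muscle markers summed to 7.56 to 11.2 CPM in lambs and 20.3 to 113 CPM in fetuses (2 of 3 tested lower), with MYOD1 at 0 counts. Kidney markers summed to 3.06 to 6.10 CPM in lambs and 3.16 to 5.74 CPM in fetuses (adjusted p of 0.364 to 0.828 for the 3 tested), with AQP2 and SLC34A1 at 0 counts. Adrenal markers summed to 37.7 to 48.0 CPM in lambs and 23.8 to 35.2 CPM in fetuses, without overlap, with adjusted p of 0.0702 to 0.526 for the 3 tested and DBH at 0 counts. Endothelial markers summed to 1481 to 1581 CPM in lambs and 1445 to 1823 CPM in fetuses (2 of 6 lower, 1 higher). What part these cell types have in the carrier levels was not tested, and in bulk tissue fewer cells of a type and less RNA per cell cannot be told apart.

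Carrier transcripts that changed were mostly lower in lambs. Of the 38 members tested, 20 were lower in lambs, which is 52.6% of them, where 22.7% of all genes tested were lower. There were 4 higher members, or 10.5%, where 22.0% of all genes were higher, and 14 did not pass the threshold. In either direction 24 members passed, and 44.7% of all genes tested did. The differences of the lower members ranged from -3.52 to -0.44 on the log2 scale with a median of -1.54, and 15 of them exceeded 2-fold, a size of decrease reached by 12.9% of all genes. Increases above 2-fold were found for 2 members, against 10.0% of all genes. The median log2 difference of the members tested was -0.75, beside -0.01 for all genes tested, and 30 members had a negative value and 8 a positive one.

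The split depends on how libraries are scaled. On library totals alone, which count the mitochondrial genome transcripts in, 14 of the 38 members were lower and 7 higher. Of all 13624 genes tested 1459 were lower and 5598 higher on that scaling. The median was -0.28 for the members and 0.46 for all genes. On library totals with those transcripts left out, 21 members were lower and 4 higher, beside 3129 genes lower and 2867 higher. Summed over the 41 members, the carriers took 0.202% ± 0.006 of all lamb counts and 0.385% ± 0.035 of all fetal counts. Of counts outside the mitochondrial genome they took 0.220% ± 0.007 in lambs and 0.587% ± 0.061 in fetuses (SD, n = 3 each), and on either base the groups did not overlap.

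**Figure D1:**
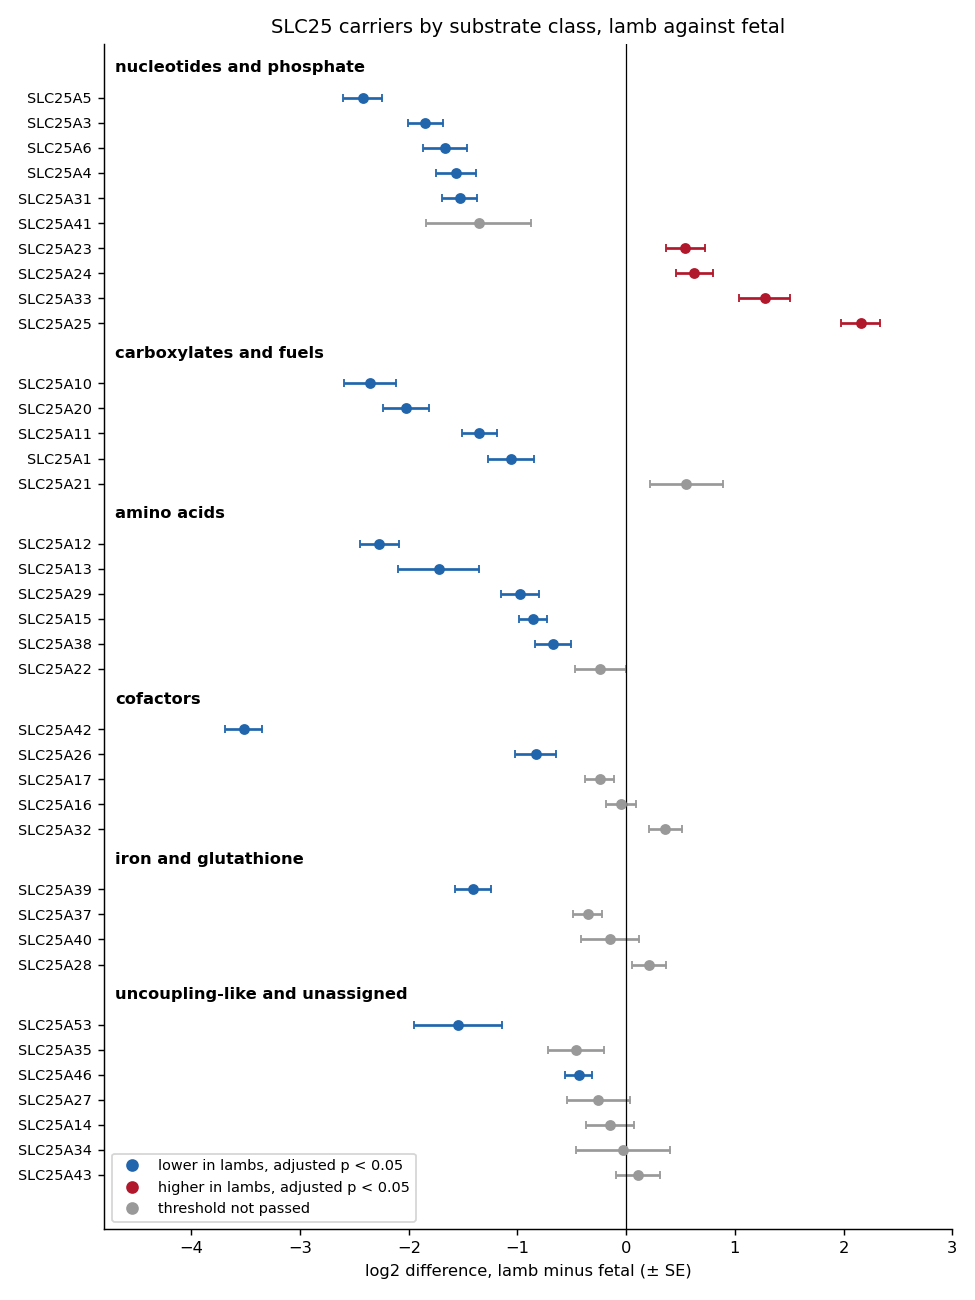
Log2 difference (lamb minus fetal, horizontal axis, ± SE) of 37 of the 38 SLC25 genes tested, 1 row per gene, grouped by the class of substrate carried; blue marks genes lower in lambs, red genes higher and grey genes that did not pass an adjusted p of 0.05. The 19 decreases drawn appear in every class, and the 4 increases all lie among carriers of nucleotides and phosphate. On library totals alone 14 of the 38 were lower and 7 higher, the added 3 in other classes. Of all 13624 genes tested 1459 were lower and 5598 higher on that scaling.

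Sorted by what they carry, the classes differed in how many members moved. Among 10 carriers of nucleotides and phosphate 5 were lower and 4 higher (median -1.44). Of 5 carriers of carboxylates and fuels 4 were lower (median -1.35), and of 6 amino acid carriers 5 were lower (median -0.92). Cofactor carriers were lower in 3 of 6 (median -0.54) and iron and glutathione carriers in 1 of 4 (median -0.25). Uncoupling-like carriers and those without a settled substrate were lower in 2 of 7 tested (median -0.26). Of all genes tested 22.7% were lower and 22.0% higher. The iron and glutathione class and the uncoupling-like class lay near that share of lower genes. With TMM scaling all 4 members higher in lambs were carriers of nucleotides and phosphate. On library totals SLC25A21 (carboxylates, 1.03, adjusted p = 0.0424), SLC25A28 (iron, 0.69, adjusted p = 0.0154) and SLC25A32 (cofactors, 0.85, adjusted p = 0.00419) passed as higher too, and SLC25A28 also did so without lamb 3. Whether classes differ was not tested.

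All 4 ADP/ATP carrier genes were lower in lambs. These carriers swap ATP made in the matrix for cytosolic ADP. SLC25A6, the widely expressed isoform ANT3 (ENSOARG00000007688, chromosome X, 611852 to 614111 on Oar v3.1), had 370, 414 and 302 CPM in lambs against 920, 1389 and 1137 CPM in fetuses, a difference of -1.67 ± 0.20 (adjusted p = 0.000637). SLC25A4, the isoform ANT1 of heart and skeletal muscle (ENSOARG00000007666, chromosome 26, 14223802 to 14227499), had 126, 144 and 116 CPM in lambs against 325, 476 and 344 CPM in fetuses, a difference of -1.56 ± 0.18 (adjusted p = 0.000528). In neither gene did any lamb value reach a fetal one, and the skeletal muscle marker CKM was at 7.38 ± 1.59 CPM in lambs and 43.2 ± 26.3 CPM in fetuses; its part in the SLC25A4 level was not tested. SLC25A5, the isoform ANT2 of proliferating cells (ENSOARG00000016274, chromosome X, 109342823 to 109344195), had 47.9, 55.8 and 59.0 CPM in lambs against 261, 358 and 255 CPM in fetuses. Its difference was -2.43 ± 0.18 (adjusted p = 0.000103), or 5.37-fold lower, the largest of the 4 and the second largest decrease among the members. SLC25A31, known as the testis isoform ANT4 (ENSOARG00000016119, chromosome 17, 29631331 to 29661343), had 5.09, 6.12 and 5.05 CPM in lambs against 13.7, 16.4 and 16.9 CPM in fetuses, a difference of -1.53 ± 0.16 (adjusted p = 0.000342). The 4 genes encode similar proteins, and how the authors counted reads with several placements is not stated, so reads may be split unevenly between them.

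Within the ADP/ATP carriers the make-up of the transcript pool also differed, a quantity that no library scaling can alter. SLC25A5 made up 8.72%, 9.00% and 12.2% of the ADP/ATP carrier counts in lambs against 17.2%, 16.0% and 14.5% in fetuses. The Wilson 95% interval of the highest lamb share ended at 12.9% and that of the lowest fetal share began at 14.1%. Both intervals cover counting error within a library only, not the spread between animals. SLC25A6 held 65.5% ± 2.56 in lambs and 62.5% ± 2.20 in fetuses, with overlapping values. SLC25A4 held 23.5% ± 0.56 in lambs and 20.8% ± 0.99 in fetuses without overlap, and SLC25A31 0.988% ± 0.061 and 0.867% ± 0.121 with overlap (SD, n = 3 each). By the authors' RPKM means, which allow for gene length, SLC25A5 held 10.6% in lambs and 17.1% in fetuses, and SLC25A6 66.7% and 63.3%. These shares are a description, with no test.

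**Figure D2:**
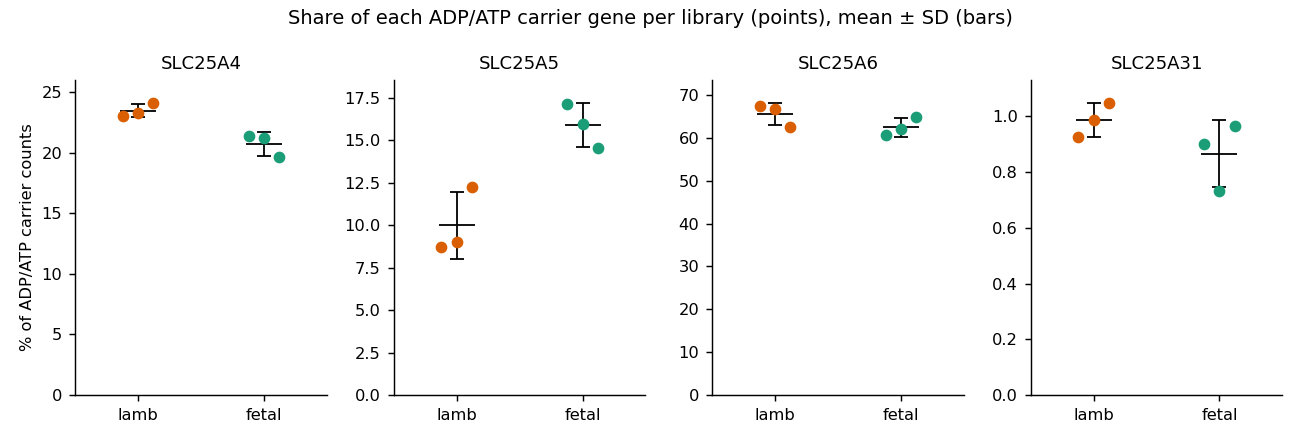
Share of each ADP/ATP carrier gene in the summed counts of all 4 (vertical axis, percent, starting at 0) in 3 lamb and 3 fetal libraries; points are libraries, bars the mean ± SD. SLC25A5 took 8.72 to 12.2% in lambs and 14.5 to 17.2% in fetuses, and SLC25A4 lay higher in lambs.

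The phosphate carrier SLC25A3, which imports phosphate for ATP synthesis and copper for cytochrome c oxidase (ENSOARG00000012970, chromosome 3, 167803323 to 167808856), was lower in lambs too. It had 292, 320 and 321 CPM in lambs against 964, 1275 and 1116 CPM in fetuses, a difference of -1.85 ± 0.16 (adjusted p = 0.000152). The lamb libraries lay close together, and the lowest fetal value was well above all of them. On the authors' length-scaled RPKM, SLC25A6 (407 in lambs, 925 in fetuses) and SLC25A3 (293 in lambs, 706 in fetuses) ranked first and second among the 41 members in both stages. The 4 ADP/ATP carriers and SLC25A3 together made up 52.3% of the summed RPKM of the family in lambs and 67.9% in fetuses.

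The calcium-regulated carriers of ATP-Mg, which set the size of the adenine nucleotide pool in the matrix by exchange with phosphate, were higher in lambs. SLC25A25, the most abundant of them in lambs (ENSOARG00000010958, chromosome 3, 8063665 to 8095159), had 70.3, 50.7 and 62.4 CPM in lambs against 16.6, 11.9 and 12.6 CPM in fetuses. The difference of 2.16 ± 0.18 (adjusted p = 0.000143), 4.46-fold, was the largest increase among the members, and every lamb value was above every fetal one. By RPKM means it ranked 9 of 41 in lambs (53.6) and 25 of 41 in fetuses (9.75). SLC25A24 had 23.4, 24.0 and 30.3 CPM in lambs against 16.6, 19.7 and 14.0 CPM in fetuses (0.63 ± 0.17, adjusted p = 0.0188). SLC25A23 had 22.0, 17.3 and 15.4 CPM in lambs against 10.5, 13.5 and 13.5 CPM in fetuses (0.54 ± 0.18, adjusted p = 0.0404). The stages did not overlap in either gene, but these calls were less firm. SLC25A24 lost its call without fetal 1 (adjusted p = 0.0583), fetal 3 (0.0644) or lamb 3 (0.0532). SLC25A23 lost it without any single library other than lamb 3, with adjusted p from 0.0626 to 0.130. SLC25A41, the form without calcium regulation, was scarce, at 0.889, 0.571 and 0.650 CPM in lambs and 0.777, 2.43 and 2.27 CPM in fetuses. Its difference of -1.36 ± 0.48 did not pass (adjusted p = 0.0521). It passed without fetal 1 (-1.73, adjusted p = 0.0129), on library totals without the mitochondrial genome (adjusted p = 0.0483), with upper quartile factors (0.0458) and by DESeq2 (0.0448).

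The pyrimidine nucleotide carrier SLC25A33, which supplies nucleotides for mitochondrial DNA and RNA synthesis (ENSOARG00000008554, chromosome 12, 42049646 to 42075896), was the other member more than 2-fold higher. It had 109, 72.0 and 82.3 CPM in lambs against 33.3, 47.7 and 27.9 CPM in fetuses, a difference of 1.28 ± 0.23 (adjusted p = 0.00373). The groups did not overlap, and of the 4 higher members only SLC25A25 and SLC25A33 kept their call under all 16 other scalings, filters, tools and left-out libraries tried.

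**Figure D3:**
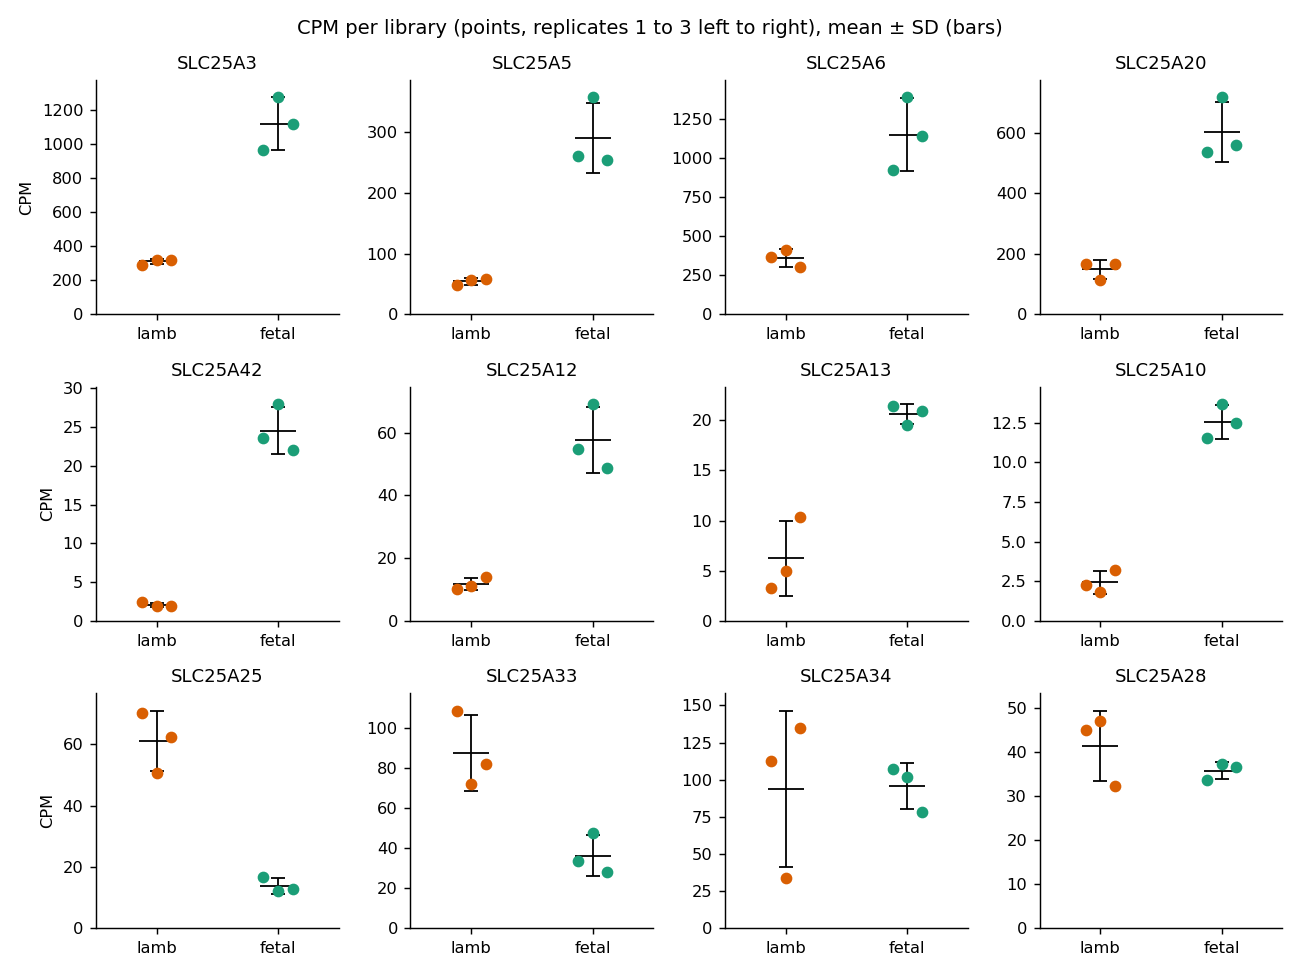
CPM of 12 SLC25 genes (vertical axes, each from 0) in 3 lamb and 3 fetal libraries; points are libraries, bars the mean ± SD. Lambs are lower without overlap in SLC25A3, SLC25A5, SLC25A6, SLC25A20, SLC25A42, SLC25A12, SLC25A13 and SLC25A10, higher in SLC25A25 and SLC25A33, and overlap with fetuses in SLC25A34, where lamb 2 lies apart, and SLC25A28.

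Carriers of fuels and carboxylates were lower in lambs, except SLC25A21, which did not pass. The acylcarnitine carrier SLC25A20, which brings long-chain acyl groups to beta-oxidation (ENSOARG00000016084, chromosome 19, 50992184 to 51032110), had 166, 113 and 167 CPM in lambs against 536, 718 and 559 CPM in fetuses. That is a difference of -2.03 ± 0.21 (adjusted p = 0.000300), with lamb 2 the lowest library. The dicarboxylate carrier SLC25A10 (chromosome 11, 50269282 to 50275156) was scarce at 2.27, 1.82 and 3.25 CPM in lambs against 11.5, 13.7 and 12.5 CPM in fetuses (-2.36 ± 0.24, adjusted p = 0.000291). SLC25A11, the oxoglutarate/malate carrier of the malate-aspartate shuttle (chromosome 11, 26073940 to 26076153), had 63.3, 50.1 and 70.2 CPM in lambs against 160, 172 and 136 CPM in fetuses (-1.35 ± 0.16, adjusted p = 0.000607). None of these genes had overlapping groups. The citrate carrier SLC25A1, which exports citrate for fatty acid synthesis (chromosome 17, 71797592 to 71799323), had 72.9, 45.5 and 73.4 CPM in lambs against 115, 155 and 129 CPM in fetuses. Its decrease of -1.06 ± 0.21 (adjusted p = 0.0055) was the smallest of the 4, and by RPKM means it ranked 3 of 41 in lambs (150) and 5 of 41 in fetuses (232). The oxodicarboxylate carrier SLC25A21 stood at 1.64 ± 0.30 CPM in lambs and 1.12 ± 0.32 CPM in fetuses and did not pass (0.55 ± 0.34, adjusted p = 0.218).

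Both aspartate/glutamate carriers, the other membrane step of the malate-aspartate shuttle, were lower in lambs. SLC25A12 (AGC1, aralar; ENSOARG00000001611, chromosome 2, 136680840 to 136867566) had 10.4, 11.3 and 14.0 CPM in lambs against 54.6, 69.1 and 48.8 CPM in fetuses (-2.27 ± 0.18, adjusted p = 0.000119). Its span overlaps that of HAT1 by 39823 bases, and HAT1 was higher in lambs, at 28.8 CPM on average against 17.5 CPM in fetuses. Strand use in counting is not given, so reads of the overlap cannot be assigned with certainty. The authors' RPKM means of SLC25A12 were 15.2 in lambs and 30.4 in fetuses, a log2 ratio 0.77 above that of the counts. SLC25A13 (AGC2, citrin; chromosome 4, 13341624 to 13572042) had 3.26, 5.03 and 10.4 CPM in lambs against 21.4, 19.5 and 20.9 CPM in fetuses (-1.73 ± 0.37, adjusted p = 0.00758). Lamb 3 was the high library, and without it the difference was -2.31. For this gene the RPKM ratio (-0.75) was 0.51 above the count ratio on library totals (-1.26). A gap above 0.5 was shown by 7.28% of genes tested and by only these 2 of the members.

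The other amino acid carriers changed less. SLC25A29, a carrier of basic amino acids, had 6.72, 5.97 and 6.70 CPM in lambs against 12.4, 10.7 and 15.1 CPM in fetuses (-0.98 ± 0.17, adjusted p = 0.00336). The ornithine carrier SLC25A15, part of the urea cycle in liver, had 10.8, 13.2 and 13.1 CPM in lambs against 22.1, 21.6 and 23.8 CPM in fetuses (-0.86 ± 0.13, adjusted p = 0.00164). On library totals these decreases no longer passed, at -0.52 for SLC25A29 and -0.39 for SLC25A15. SLC25A38, the glycine carrier that feeds heme synthesis (chromosome 19, 12564363 to 12579674), had 5.34, 6.85 and 6.15 CPM in lambs against 10.3, 8.97 and 9.85 CPM in fetuses (-0.67 ± 0.17, adjusted p = 0.0139). Its groups did not overlap, but the call was lost without fetal 1 (-0.63, adjusted p = 0.0526) and on library totals (-0.20). The glutamate carrier SLC25A22 had 8.05, 7.06 and 12.7 CPM in lambs and 10.2, 10.6 and 12.1 CPM in fetuses and did not pass (-0.24 ± 0.24, adjusted p = 0.439). Lamb 3 again was the high library, and without it the difference was -0.54 (adjusted p = 0.0490).

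Among cofactor carriers stood the largest change of the family. SLC25A42, which brings coenzyme A into the matrix in exchange for adenine nucleotides (ENSOARG00000009578, chromosome 5, 3894103 to 3904014), had 2.42, 1.97 and 2.00 CPM in lambs against 23.6, 28.0 and 22.1 CPM in fetuses. The gene was 11.5-fold lower in lambs (-3.52 ± 0.17, adjusted p = 3.09e-05), and 1.23% of all genes tested had a log2 difference below that value. By RPKM means it ranked 33 of 41 in lambs (3.60) and 12 of 41 in fetuses (30.6). The S-adenosylmethionine carrier SLC25A26, which supplies methyl groups to the matrix, had 9.59, 8.36 and 12.2 CPM in lambs against 14.9, 19.1 and 19.8 CPM in fetuses (-0.83 ± 0.19, adjusted p = 0.0092). The groups of SLC25A26 did not overlap, and its call was lost on library totals (-0.36).

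The 3 cofactor carriers SLC25A16, SLC25A17 and SLC25A32 did not pass the threshold. SLC25A16, also linked to coenzyme A, had 27.2, 20.2 and 21.7 CPM in lambs and 23.8, 24.0 and 23.6 CPM in fetuses (-0.05 ± 0.14, adjusted p = 0.808), and without lamb 2 the value was 0.044. SLC25A17, a peroxisomal carrier of coenzyme A and other cofactors, had 20.9, 19.0 and 22.6 CPM in lambs and 23.1, 28.1 and 22.7 CPM in fetuses (-0.24 ± 0.13, adjusted p = 0.178). SLC25A32, the folate and FAD carrier, had 11.8, 11.1 and 11.2 CPM in lambs and 9.03, 9.93 and 7.58 CPM in fetuses (0.36 ± 0.15, adjusted p = 0.0896). The lamb and fetal values of SLC25A17 and SLC25A32 do not overlap, though neither gene passed. On library totals SLC25A16 and SLC25A17 had positive values of 0.43 and 0.24, and SLC25A32 passed at 0.85.

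Of the iron and glutathione carriers, SLC25A39 was lower. This glutathione carrier (ENSOARG00000008086, chromosome 11, 43546675 to 43550389) had 63.4, 52.3 and 69.1 CPM in lambs against 140, 192 and 159 CPM in fetuses (-1.41 ± 0.17, adjusted p = 0.000548). SLC25A40, the second glutathione carrier, stood at 2.89 ± 0.08 CPM in lambs and 3.21 ± 0.94 CPM in fetuses (-0.15 ± 0.27, adjusted p = 0.682; 0.11 without fetal 2). SLC25A37, mitoferrin 1, which imports iron in red cell precursors (chromosome 2, 41982595 to 42028124), had 16.9, 14.2 and 18.6 CPM in lambs and 21.5, 21.7 and 20.4 CPM in fetuses. It did not overlap and did not pass (-0.35 ± 0.13, adjusted p = 0.0655), though it did without lamb 3 (-0.44, adjusted p = 0.0440), with upper quartile factors (-0.41, adjusted p = 0.0327) and among genes at 5 CPM or more (-0.39, adjusted p = 0.0390), while on library totals it was at 0.12. The red cell gene HBBB was at 21.3 ± 6.24 CPM in lambs and 701 ± 463 CPM in fetuses, and its part in the SLC25A37 level was not tested. SLC25A28, mitoferrin 2, which serves other cells (chromosome 22, 19775783 to 19785965), had 45.1, 47.0 and 32.3 CPM in lambs and 33.7, 37.2 and 36.6 CPM in fetuses (0.21 ± 0.16, adjusted p = 0.307). Without lamb 3 it was 0.36 (adjusted p = 0.0390), and by RPKM means it ranked 5 of 41 in lambs (75.2) and 10 of 41 in fetuses (47.7).

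Members that resemble the uncoupling proteins or have no settled substrate mostly did not pass. SLC25A34 had the highest CPM of them, with 112, 34.0 and 135 CPM in lambs and 107, 102 and 78.0 CPM in fetuses (-0.03 ± 0.44, adjusted p = 0.961). Lamb 2 was far below the other lambs, and without it the difference was 0.37 (adjusted p = 0.142). It was also 0.06 without fetal 1 and 0.01 without fetal 2, so its sign depended on single libraries. SLC25A14 (UCP5) stood at 2.77 ± 0.24 CPM in lambs and 3.08 ± 0.13 CPM in fetuses, and SLC25A27 (UCP4) at 1.29 ± 0.21 and 1.54 ± 0.17 CPM. SLC25A35, with 2.87 ± 0.79 and 3.96 ± 0.35 CPM, did not overlap, and SLC25A43 had 4.54 ± 0.42 and 4.21 ± 0.45 CPM (SD, n = 3 each); none of these passed. SLC25A46, an outer membrane protein of mitochondrial dynamics, had 20.1, 23.7 and 23.5 CPM in lambs against 28.3, 29.5 and 33.3 CPM in fetuses (-0.44 ± 0.12, adjusted p = 0.0231). Leaving out fetal 2 ended the call (adjusted p = 0.0560), as did leaving out fetal 3 (0.0946) or lamb 1 (0.0572), and on library totals the value was 0.032. SLC25A53 was scarce, at 0.445, 0.778 and 0.400 CPM in lambs against 1.85, 1.10 and 1.79 CPM in fetuses (-1.55 ± 0.40, adjusted p = 0.0166). It no longer passed without fetal 1 (adjusted p = 0.0576), fetal 3 (0.0615), lamb 1 (0.0563) or lamb 3 (0.0530).

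The 3 members that were not tested had hardly any reads. SLC25A47, a liver carrier, had 5, 1 and 1 counts in lambs and 9, 3 and 9 in fetuses. SLC25A45 had 2 counts in all lamb libraries together and 3 in all fetal libraries. SLC25A48, a carrier linked to choline import, had 0 counts in all 6 libraries, which allows up to 0.174, 0.189 and 0.174 CPM in lambs and 0.157, 0.159 and 0.171 CPM in fetuses before TMM scaling. The authors' RPKM means of SLC25A48 are not 0, at 0.589 in lambs and 0.547 in fetuses, so the reads behind them are not those of the count columns.

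Of 10 members at 50 CPM or more on average over the 6 libraries, a divide chosen after the values were seen, 8 were lower and 1 higher, with a median of -1.49. Of all 3090 genes at that level 23.6% were lower and 32.5% higher, with a median of 0.12. Of the 28 members below it 12 were lower and 3 higher, with a median of -0.39, while of all 10534 such genes 22.4% were lower and 19.0% higher. SLC25A3, SLC25A4, SLC25A5, SLC25A6 and SLC25A20 together held 58.7% ± 5.14 of the members' counts in lambs and 77.3% ± 1.73 in fetuses (SD, n = 3 each). They are the members with the highest fetal CPM and all were called lower, so a smaller lamb share is partly set by that choice. In lambs SLC25A34 had a higher average CPM (93.6) than SLC25A5 (54.2), but not in lamb 2 (34.0 against 55.8). CPM does not allow for gene length, and by RPKM means SLC25A34 was the lower in lambs (23.5 against 64.5).

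**Figure D4:**
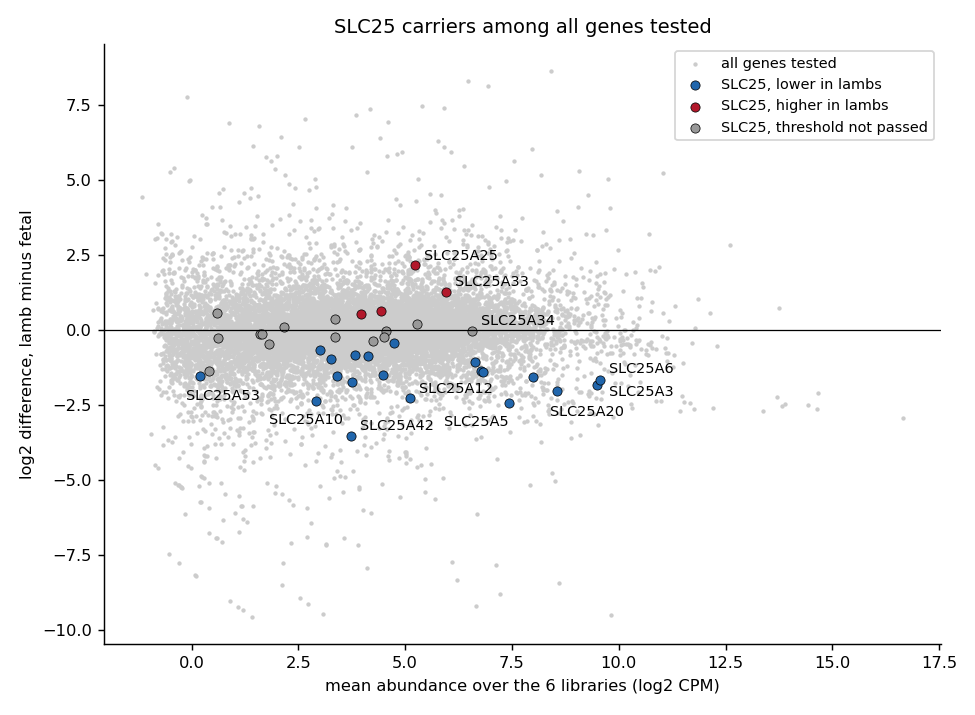
Log2 difference (lamb minus fetal, vertical axis) against mean abundance over the 6 libraries (log2 CPM, horizontal axis) for 13624 genes tested (light grey) with the 38 SLC25 genes marked; blue is lower in lambs, red higher and dark grey not past the threshold. The most abundant members, SLC25A6 and SLC25A3, lie at -1.67 and -1.85, SLC25A42 is the lowest and SLC25A25 the highest.

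Groups did not overlap, with lambs the lower, in 23 members, where 29.5% of all genes tested did so, and in 5 members with lambs the higher, where 28.2% of all genes did. The 24 members called were all among them, with SLC25A17, SLC25A32, SLC25A35 and SLC25A37 besides. The spread between animals was small beside most differences, with a median coefficient of variation of 15.9% in lambs and 13.9% in fetuses. The widest were SLC25A13 (59.6%) and SLC25A34 (56.4%) in lambs and SLC25A41 (49.9%) in fetuses. Lamb 3 was the highest lamb in 19 of the 38 members and lamb 2 the lowest in 21, and fetal 2 was the highest fetus in 21 and fetal 1 the lowest in 16. Fetal 2 also had the largest part of its counts in the mitochondrial genome, 40.7%, beside 34.5% in fetal 1 and 27.5% in fetal 3.

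Some members are neighbours in the genome. SLC25A5 and SLC25A43 lie 11960 bases apart on chromosome X with no gene between them, the first 5.37-fold lower in lambs and the second at 0.11 ± 0.20 (adjusted p = 0.687). SLC25A23 and SLC25A41, both ATP-Mg carriers, lie 3455 bases apart on chromosome 5, the first higher in lambs and the second at -1.36 without passing. SLC25A29 and the untested SLC25A47 lie 10924 bases apart on chromosome 18. Whether the neighbours differ from each other was not tested.

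Genes that work beside the carriers were lower in lambs in most lists. Each list below is to be read beside all genes tested, of which 22.7% were lower and 22.0% higher. Of 24 other mitochondrial membrane transporters tested, 16 were lower and 2 higher (median -1.02). UCP1, the proton leak of brown adipocytes, was at 476 ± 77.2 CPM in lambs and 1633 ± 530 CPM in fetuses (-1.78 ± 0.27, adjusted p = 0.00154), and the iron-sulfur linked ABC transporter ABCB8 at 27.6 ± 5.28 and 93.6 ± 13.6 CPM (-1.76 ± 0.18, adjusted p = 0.000275). SFXN1, a serine carrier of another family, was higher in lambs at 193 ± 32.0 CPM against 62.2 ± 13.3 CPM in fetuses (1.63 ± 0.20, adjusted p = 0.000602), and so was the sodium/calcium exchanger SLC8B1 (0.81 ± 0.17, adjusted p = 0.00772). UCP3 was not tested, with 0 counts in every lamb library and 3, 2 and 2 counts in the fetal libraries.

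Among 18 ATP synthase and nucleotide exchange genes, the partners of the ADP/ATP and phosphate carriers, 14 were lower and 2 higher (median -1.83). ATP5G1, which encodes subunit c of ATP synthase, was at 40.9 ± 18.8 CPM in lambs and 539 ± 93.9 CPM in fetuses (-3.72 ± 0.34, adjusted p = 0.000186). PPIF, cyclophilin D of the permeability transition pore, was at 2.56 ± 0.61 CPM in lambs and 30.7 ± 6.22 CPM in fetuses (-3.57 ± 0.24, adjusted p = 7.21e-05). The hexokinases HK2 (2.28 ± 0.41, adjusted p = 0.00337) and HK1 (0.69 ± 0.14, adjusted p = 0.00574), which use ATP at the outer membrane, were the 2 that were higher.

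Enzymes paired with the shuttle and fuel carriers were lower as well. Of 7 redox shuttle genes 6 were lower (median -2.33), led by the aspartate aminotransferase GOT1 at 17.0 ± 4.74 CPM in lambs and 202 ± 32.6 CPM in fetuses (-3.57 ± 0.25, adjusted p = 7.98e-05) and the transhydrogenase NNT (-3.51 ± 0.20, adjusted p = 4.6e-05). Of 12 genes of citrate and dicarboxylate metabolism 8 were lower and 1 higher (median -0.83), with citrate synthase CS at -3.07 ± 0.23 (adjusted p = 0.000104), the cytosolic isocitrate dehydrogenase IDH1 at -2.59 ± 0.35 (adjusted p = 0.000933) and the cytosolic aconitase ACO1 at 0.87 ± 0.13 (adjusted p = 0.0016). Of 10 carnitine system genes 9 were lower (median -2.08). They included the muscle-type palmitoyltransferase CPT1B (-3.07 ± 0.29, adjusted p = 0.000217) and the acetyltransferase CRAT (-2.64 ± 0.23, adjusted p = 0.000165). The acyl-CoA synthetase ACSL1 was the exception, at 2731 ± 573 CPM in lambs and 684 ± 98.5 CPM in fetuses (2.00 ± 0.21, adjusted p = 0.000358).

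Lists beside the amino acid and cofactor carriers were more mixed. In the amino acid list the share lower did not exceed the 22.7% of all genes tested. Of 11 amino acid, urea and glutamate genes 2 were lower and 4 higher (median 0.09), with the branched-chain dehydrogenase subunits BCKDHB (-1.16 ± 0.23, adjusted p = 0.00534) and BCKDHA (-0.97 ± 0.21, adjusted p = 0.00777) lower. The arginase ARG2 (1.91 ± 0.20, adjusted p = 0.00031) and the argininosuccinate synthase ASS1 (1.85 ± 0.19, adjusted p = 0.00029) were higher, while the ornithine carrier SLC25A15 and the basic amino acid carrier SLC25A29 were lower. Of 16 heme, iron-sulfur and glutathione genes 11 were lower and 1 higher (median -0.87). The glutathione synthetase GSS, which makes what SLC25A39 carries, was at 9.61 ± 4.52 CPM in lambs and 69.1 ± 11.3 CPM in fetuses (-2.84 ± 0.31, adjusted p = 0.000405). The glutaredoxin GLRX5 was lower too (-2.59 ± 0.21, adjusted p = 0.000131), and the scaffold ISCU was higher (0.48 ± 0.15, adjusted p = 0.0332).

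Of 21 cofactor and nucleotide synthesis genes 10 were lower and 4 higher (median -0.37), where 22.7% of all genes tested were lower and 22.0% higher. The list's largest decrease was PANK1, a pantothenate kinase at the start of coenzyme A synthesis, at 3.65 ± 0.34 CPM in lambs and 61.1 ± 16.4 CPM in fetuses (-4.06 ± 0.23, adjusted p = 4.6e-05), beside the decrease of the coenzyme A carrier SLC25A42. NMNAT3, the mitochondrial NAD synthesis enzyme, was at 0.486 ± 0.136 CPM in lambs and 6.70 ± 0.44 CPM in fetuses (-3.76 ± 0.28, adjusted p = 0.000102), while its nuclear counterpart NMNAT1 (0.90 ± 0.12, adjusted p = 0.00103) and the folate enzyme MTHFD1L (1.12 ± 0.30, adjusted p = 0.019) were higher. All 30 nuclear respiratory chain genes tested were lower (median -2.07), with COX7A1 at -6.13 ± 0.26 (adjusted p = 1.95e-05) and CYCS at -3.17 ± 0.50 (adjusted p = 0.00189). The carriers' median of -0.75 was nearer to 0 than that of the respiratory chain genes; whether the lists differ was not tested.

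**Figure D5:**
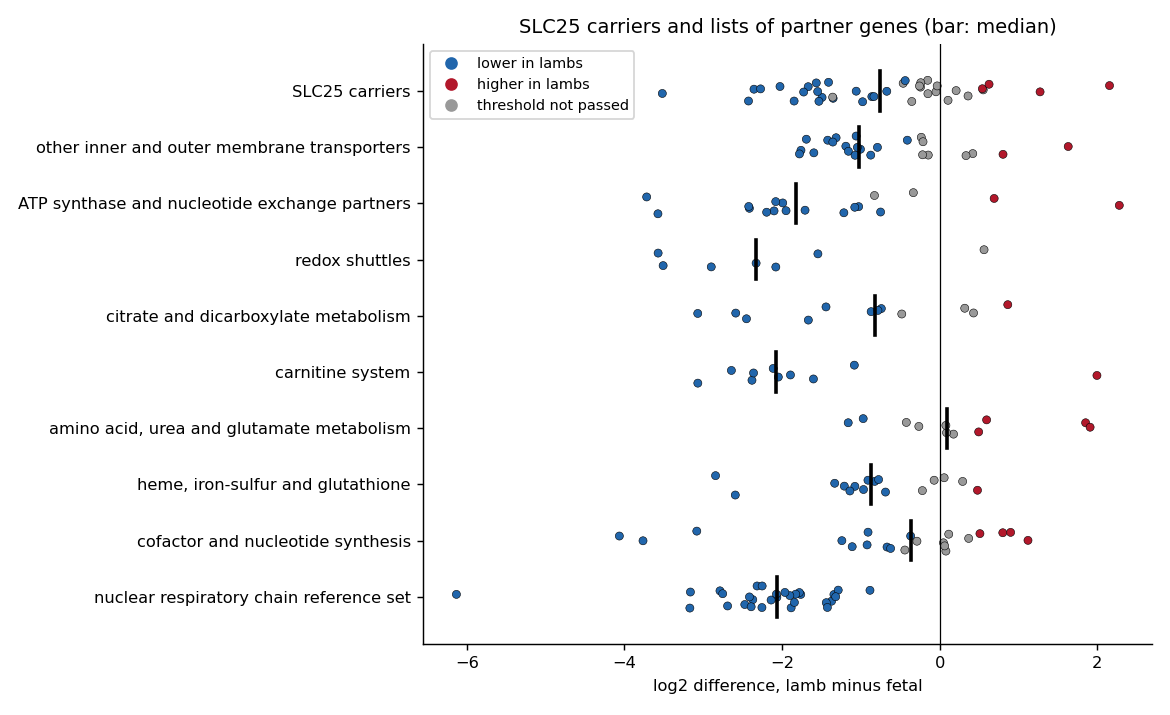
Log2 difference (lamb minus fetal, horizontal axis) of each tested gene of the SLC25 family and of 9 lists of partner genes, 1 point per gene with the list's median as a bar; blue is lower in lambs, red higher and grey not past the threshold. The medians run from -2.33 (redox shuttles) to 0.09 (amino acid, urea and glutamate metabolism), with the carriers at -0.75 and all 30 respiratory chain genes below 0.

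In the authors' deposited table, their own edgeR comparison had 18 members lower and 3 higher in lambs at an adjusted p below 0.05, where 11.8% of its 24390 genes were lower and 10.5% higher. That base includes genes with too few counts to be tested here. Its shares are therefore not comparable with the 22.7% lower and 22.0% higher of the 13624 genes tested here. All 21 members of the authors' calls are among the 24 called here in the same direction. The calls made here alone were SLC25A23, SLC25A38 and SLC25A46, with adjusted p of 0.0976, 0.0743 and 0.150 in the authors' deposited table.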

How the data were processed

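Total RNA of 6 perirenal fat samples was sequenced as single-end 50-base reads, run together on a single flowcell, to about 33.2 M reads per library on average; RNA integrity numbers were above 9 and tissue was taken within 10 minutes of death, per the labels' protocols. Reads were mapped by the authors in CLC Genomics Workbench 7.0 against Oar v3.1 with the gene models of Ensembl release 74, per the series' design text; read filters, strand use and the handling of reads with several placements are not stated there or in the labels. The deposited table holds whole-number read counts per gene and library, per the file headers. The authors also deposited RPKM (reads per length of the gene model and per library size), averaged over each stage, used here to order genes by level, for shares within a stage and, as ratios of the stages, beside the count ratios, with no test. Their signed linear fold, a score, and their FDR-adjusted p-value are quoted as the authors' values. A further 12 columns of per-library values were not used. Positions are those of the table, counted from 1.

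Counts were tested in R 4.3.3 with edgeR 4.0.16 (filterByExpr, TMM, quasi-likelihood F test, no covariates), with adjusted p over all genes tested and called below 0.05; the SE is the log2 difference over the square root of F. Alternatives used DESeq2 1.42.0, limma 3.58.1 and other scalings and filters. The fit was tested on simulated data. Libraries of a stage differed by far more than counting noise (chi-square per degree of freedom 45.6 to 88.1), so none was counted as a duplicate. Wilson intervals (95%) and the limit for a count of 0 (3 counts) cover counting error only, since reads carry no molecular identifiers. The members, gene lists and rules were chosen with earlier results of these data known. Named were the ADP/ATP, phosphate, shuttle, citrate, carnitine, iron, glutathione and coenzyme A carriers whatever their result, the 6 largest called increases and decreases, and members not called at 5 CPM or more; from each partner list up to 2 called genes per direction at 1 CPM or more. Other members are named so that they are accounted for, except 1 tested member that is counted but whose values are not reported here. SLC25A44, SLC25A51 and SLC25A52, also on that list of names, were not analysed here.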

Additional observations from a re-analysis of the deposited data

How the results depend on the processing

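Of the 24 members called, 16 (14 lower, 2 higher) stayed called with the same direction in all 16 other versions of the fit (6 left-out libraries, and other scalings, filters and tools). Scaling by library totals gave 14 members lower and 7 higher of 38, and 1459 genes lower and 5598 higher of 13624. The median log2 difference there was -0.28 for the members and 0.46 for all genes. The sign of the difference turned positive there for SLC25A14 (0.32), SLC25A16 (0.43), SLC25A17 (0.24), SLC25A22 (0.22), SLC25A27 (0.21), SLC25A34 (0.44), SLC25A35 (0.00059), SLC25A37 (0.12), SLC25A40 (0.36) and SLC25A46 (0.032). A minimum of 5 CPM in 3 libraries left 30 members tested and 6 of them not called, with a median of -0.96. SLC25A37 passed as lower there, and SLC25A53, called above, was too scarce to be tested. Leaving out 1 library at a time gave 18 to 21 members lower, 2 to 4 higher (2 without fetal 1 or fetal 3), 13 to 18 not called and medians from -0.80 to -0.67. Members that did not pass changed sign as well: over the left-out libraries SLC25A16 ranged from -0.18 to 0.044 (lamb 2), SLC25A34 from -0.38 to 0.37 (lamb 2; 0.06 without fetal 1 and 0.01 without fetal 2) and SLC25A40 from -0.31 to 0.11 (fetal 2); the cause was not tested. Replicate numbers did not pair the samples, with correlations of same-numbered deviations of 0.00327, -0.116 and 0.046, and not every sample correlated best with its own number; a replicate block gave 20 members lower, 3 higher (SLC25A23 did not pass) and 15 not called, and 2755 genes lower and 2598 higher. Added after seeing the data, the authors' RPKM means gave a median log2 ratio of -0.14 for the members. RPKM is scaled by library size, so its counterpart is the median of -0.28 on library totals, not the TMM median of -0.75. Over all genes tested the RPKM ratio lay a median of -0.02 from the count ratio on library totals. RPKM shares among the ADP/ATP carriers, also added then, were 21.7% in lambs and 18.8% in fetuses for SLC25A4 and 0.743% in fetuses for SLC25A31. Outside the mitochondrial genome the family held 0.220% of counts in lambs and 0.587% in fetuses. Isoform shares per length of the gene model were not run, because no gene-model length was used. Depth limits the scarce members most, SLC25A53, SLC25A41 and the 3 not tested.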
